A study of Mus musculus with 16 samples.

Results

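The genes described here are the CCL chemokine genes of the mouse colon. A list of 10 was set by symbol (Ccl2, Ccl3, Ccl4, Ccl5, Ccl6, Ccl7, Ccl8, Ccl9, Ccl20 and Ccl28), and 7 of them, Ccl2, Ccl3, Ccl4, Ccl5, Ccl7, Ccl8 and Ccl9, were among the 5171 distinct genes of the 4 tables of this RNA-seq series. Ccl6, Ccl20 and Ccl28 were not analysed here. The list was drawn up with earlier results of these data known.

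RNA was measured in whole colon tissue of male C57BL/6 mice in 4 groups. WT control (n = 3 libraries) and KO control (n = 3) were not given dextran sulfate sodium (DSS), a detergent-like polysaccharide that damages the colon lining. WT colitis (n = 5) and KO colitis (n = 5) drank 1% DSS for 15 days. KO mice lack Smarcad1, a chromatin remodeller of the SNF2 family, through a Vil-Cre transgene that cuts floxed Smarcad1 in the intestinal epithelium, so immune and stromal cells of the same tissue keep the gene. The floxed allele comes from a line derived from 1 embryonic stem cell clone. All mice, WT and control included, had received an enriched microbiota from donor females of another SPF facility by bedding transfer and shared ventilation. Cohorts were age matched, with no age given in the sources used here.

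The values are the authors' group means of log2 RPM (counted reads scaled to a library of 1 M reads, not corrected for gene length), so single libraries could not be examined. No spread between mice was available, and no difference below was tested against it. The geometric mean library held between 8.005 M and 10.1 M counted reads in the 4 groups. The standard errors given below (counting SE) are computed from those reads and cover counting error only. Group means of 3 reads per library or fewer, which is between -1.75 and -1.42 log2 RPM, were set to that floor before any difference was taken, so a fold against them is a lower bound. Smarcad1 had means of 5.77 in WT control, 4.59 in KO control, 5.68 in WT colitis and 4.55 in KO colitis, lower in KO by 1.18 and 1.13 on the log2 scale. These values count reads over the exons of the whole gene, of which the deletion removes only some. Cells outside the epithelium of the same tissue keep the gene. The source of the remaining reads was not tested. The sample labels name the colon, whereas the series design text names the small intestine. Of the colon epithelium markers 3 of 11 were listed (Car1, Aqp8 and Slc26a3), at 9.36 to 11.7 log2 RPM over the groups, while of the small intestine markers 2 of 7 were listed, with Fabp6 at 1.22 in WT control and Fabp2 at 9.17.

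Chemokines are small secreted proteins that steer migrating leukocytes through G protein-coupled receptors. The CC family is defined by a pair of adjacent cysteines near the amino end of the mature protein, each of which forms a disulfide bond. In the inflamed gut, CC chemokines made by macrophages, stromal cells, lymphocytes and epithelium draw monocytes, T cells and other leukocytes out of the blood. Their genes are classic targets of NF-kB, interferon and TNF signalling.

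The family signature can be read in the coding sequence of every one of the 7 genes. For each gene the stretch of 42 coding bases around the codons of the adjacent cysteines is shown, 5′ to 3′ on the coding strand, taken from the GENCODE transcripts of build GRCm38, with those codons in capitals.
Ccl2: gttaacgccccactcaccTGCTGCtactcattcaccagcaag
Ccl3: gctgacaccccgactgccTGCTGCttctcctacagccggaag
Ccl4: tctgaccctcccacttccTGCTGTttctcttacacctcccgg
Ccl5: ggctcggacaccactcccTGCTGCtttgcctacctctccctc
Ccl7: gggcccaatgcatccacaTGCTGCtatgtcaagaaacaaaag
Ccl8: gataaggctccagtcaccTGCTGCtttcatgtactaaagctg
Ccl9: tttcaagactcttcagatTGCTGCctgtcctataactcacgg
Each coding sequence held 1 such adjacent pair. Ccl4 was the exception in spelling, with TGCTGT in place of TGCTGC. The first of the cysteines was codon 34 in Ccl2, Ccl3 and Ccl4, codon 33 in Ccl5 and Ccl7 and codon 32 in Ccl8. In Ccl9 it was codon 57 of 122, in exon 3 of 4 (chr11:83575908-83575949, minus strand). The Ccl2 stretch lay at chr11:82036488-82036529 on the plus strand. In Ccl2, Ccl3, Ccl4, Ccl5 and Ccl7 the stretch was in exon 2 of 3, and in Ccl8 it spanned the junction of exons 1 and 2. Over the 21 pairs of genes, coding sequences were most alike for Ccl3 and Ccl4, at 69.3% identical aligned bases, followed by Ccl2 and Ccl7 at 67.0%, and least alike for Ccl3 and Ccl7 at 56.7%. No stretch of 100 bases of any of the 7 genes' transcripts occurred in another CC chemokine gene examined.

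All 7 genes lie on chromosome 11, in 2 groups (coordinates of GRCm38 as the tables give them). Ccl2 (82035571 to 82037453, plus strand), Ccl7 (82045712 to 82047525, plus) and Ccl8 (82115185 to 82116799, plus) span 81.2 kb. Ccl5 (83525778 to 83530518, minus strand), Ccl9 (83572919 to 83578636, minus), Ccl3 (83647844 to 83649355, minus) and Ccl4 (83662584 to 83664683, plus) span 139 kb, and 1409 kb separate the groups. Ccl2 sits within Gm17268, a gene annotated on the opposite strand, but the exons of the pair share 0 bases.

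In WT colitis all 7 means were above those of WT control by at least 1 on the log2 scale, a step of 2-fold, and in KO colitis all 7 were above KO control by that much. Of the 5171 listed genes, 18.0% were higher by at least 1 in WT and 15.2% in KO. Counted relative to the median listed gene, 5 of 7 reached that step in KO, with Ccl9 (0.85) and Ccl4 (0.84, a bound) under it. These counts are a description, since a gene was listed at all because it passed the authors' threshold in at least 1 comparison. 6 of the 7 were in the WT colitis table, which held 63.1% of the listed genes, and all 7 were in the KO colitis table, which held 78.4%. Ccl3 was the gene found in the KO table alone, although its WT colitis mean was the higher of its colitis means. The tables of KO against WT held 0.890% (control) and 1.08% (colitis) of the listed genes, and 0 of the 7 genes were in them. No KO minus WT difference of the 7 genes, in control or in colitis, thus passed the authors' threshold. The median difference between colitis and control over the 7 genes was 3.47 in WT and 2.05 in KO, against 0.13 and 0.19 over all listed genes. The members' geometric mean RPM, taken from the log2 group means, summed to 54.1 in WT control and 50.3 in KO control. In colitis the sums were 247 in WT and 179.6 in KO. Summed RPM of marker lists below was formed likewise. In bulk tissue, more cells of a type and more RNA per cell cannot be told apart.

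**Figure D1:**
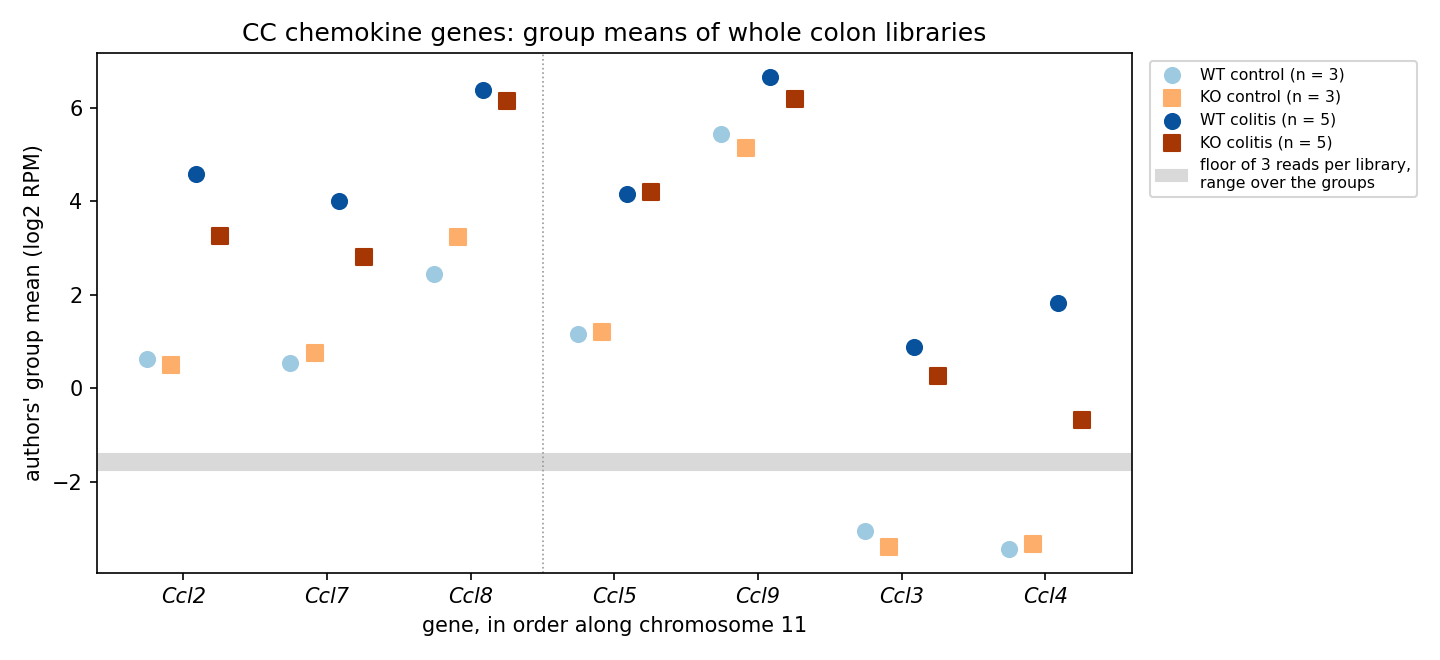
Authors' group means of the 7 CCL genes in log2 RPM (y axis), in their order along chromosome 11 (x axis), with circles for WT and squares for KO, pale for control and dark for colitis. No error bars are drawn because single libraries were not available. The dotted line parts the Ccl2 to Ccl8 group from the Ccl5 to Ccl4 group, and the grey band is the floor of 3 reads per library. The dark squares of Ccl2, Ccl7 and Ccl4 sit below the dark circles, with KO minus WT differences from -2.50 to -1.20, and the dark symbols of Ccl5 are almost level.

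Ccl2, Ccl7 and Ccl8 encode monocyte chemoattractant proteins, and Ccl2 and Ccl7 recruit inflammatory monocytes through Ccr2. The group means of Ccl2 were 0.61 log2 RPM in WT control, 0.49 in KO control, 4.58 in WT colitis and 3.24 in KO colitis. That is 15.5 and 13.7 reads in the geometric mean control library, and 191 and 93.5 in the colitis libraries. The control means were close together and the colitis means were far above both, with KO colitis the lower of the pair. The difference between colitis and control was 3.96 in WT (counting SE 0.22), 15.6-fold, and 2.75 in KO (counting SE 0.23), 6.75-fold. In colitis Ccl2 was lower in KO than in WT by 1.33 on the log2 scale (counting SE 0.081), at 39.7% of the WT level.

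Ccl7, which also binds Ccr2, had the same arrangement of groups. Its means were 0.53 in WT control, 0.75 in KO control, 4.00 in WT colitis and 2.80 in KO colitis. The difference between colitis and control was 3.47 in WT (counting SE 0.23) and 2.05 in KO (counting SE 0.22), or 11.1-fold and 4.14-fold. The KO colitis level was 43.5% of that in WT, 1.20 lower on the log2 scale (counting SE 0.096), whereas in control the KO mean was the higher by 0.22 (counting SE 0.30).

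Ccl8 was arranged differently from Ccl2 and Ccl7. Its means were 2.43 in WT control, 3.22 in KO control, 6.37 in WT colitis and 6.14 in KO colitis. The colitis means were within 0.22 of each other (counting SE 0.035), with KO at 85.6% of WT, while the KO control mean was 0.79 above that of WT (counting SE 0.14), or 91.3 against 54.6 reads in the geometric mean library. The difference between colitis and control was therefore 3.93 in WT, 15.3-fold, and 2.92 in KO, 7.56-fold, with more of the gap arising in control than in colitis.

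Ccl3 and Ccl4 encode macrophage inflammatory proteins, which activated macrophages, neutrophils and lymphocytes secrete. Both were at the limit of detection without DSS. The group means are met by read counts of 0, 1 and 2 for Ccl3 in the 3 WT control libraries, and of 0, 0 and 1 in KO control. For Ccl4 they are met by 0, 0 and 1 in WT control and by 0, 1 and 1 in KO control. In colitis Ccl4 had a mean of 1.82 in WT, 28.3 reads in the geometric mean library, and -0.67 in KO, 6.19 reads. A count of 0 enters such a mean as 0.9, so libraries without reads would lower it strongly. Whether any KO colitis library had none could not be seen. The KO colitis level of Ccl4 was 17.7% of the WT level, a KO minus WT difference of -2.50 on the log2 scale (counting SE 0.29), and this gap was the widest of the 7 genes. Against the control floor the WT colitis level of Ccl4 was at least 11.9-fold higher, and that in KO colitis at least 2.04-fold. Ccl3 had colitis means of 0.88 in WT and 0.26 in KO, or 14.8 and 11.8 reads in the geometric mean library. The WT colitis level exceeded the control floor at least 6.22-fold and the KO colitis level at least 3.89-fold. The KO colitis level was 64.8% of that of WT, lower by 0.63 on the log2 scale (counting SE 0.25). Ccl3 and Ccl4, the pair with the most similar coding sequences, thus differed in how far KO lay below WT in colitis, on low counts.

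Ccl5, known as RANTES, is a product of activated T and NK cells and a ligand of Ccr1 and Ccr3, among other receptors. Its means were 1.16 in WT control, 1.20 in KO control, 4.14 in WT colitis and 4.19 in KO colitis. WT and KO were almost level in both conditions, 0.04 apart in control (counting SE 0.25) and 0.05 apart in colitis (counting SE 0.072). Ccl5 was 7.88-fold higher in colitis than control in WT and 7.93-fold in KO, so that of the 7 genes it was the 1 whose KO change was not the smaller.

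Ccl9, a constitutively made ligand of Ccr1 known also as macrophage inflammatory protein gamma, had the highest log2 RPM of the 7 genes without DSS, on a scale not corrected for its long exons. The means were 5.44 in WT control and 5.15 in KO control, 438 and 346 reads in the geometric mean library. In colitis they were 6.66 in WT and 6.18 in KO. The difference between colitis and control was 1.23 in WT (2.34-fold), the narrowest of the 7 genes there, and 1.03 in KO (2.05-fold), narrowest among the 5 genes above the floor. KO was lower than WT by 0.29 in control (counting SE 0.060) and by 0.48 in colitis (counting SE 0.033).

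Side by side, KO colitis was below WT colitis by at least 1 in 3 of the 7 genes, Ccl2, Ccl4 and Ccl7. Of the listed genes, 2.53% took that step. None of the 3 differences passed the authors' threshold for KO against WT in colitis. The difference of the changes, KO change minus WT change, was -1 or less in 4 of 7, namely Ccl2 at -1.21, Ccl7 at -1.42, Ccl8 at -1.02 and Ccl4 at -2.55, against 3.81% of listed genes. For Ccl4 this value rests on control means set to the floor. It was -0.68 for Ccl3, also on the floor, and -0.29 with no floor. It was -0.19 for Ccl9 and 0.01 for Ccl5. It was below 0 in 6 of 7 genes, against 52.8% of listed genes. Its median over the 7 was -1.02, compared with -0.02 over all listed genes. All 7 genes were higher in colitis, whereas 2367 of the listed genes were lower in WT colitis than in WT control. For a lower gene a smaller change in KO gives a value above 0, so these backgrounds mix directions. Among the 5 genes with all 4 means above the floor, counting SEs of the difference of the changes ran from 0.068 to 0.32. In control, the KO minus WT difference of the same 5 genes ranged from -0.29 to 0.79 with a median of 0.04. By position, KO change minus WT change was -1.42 to -1.02 in the Ccl2 to Ccl8 group and -2.55 to 0.01 in the Ccl5 to Ccl4 group. Ccl11 (0.21) and Ccl12 (-1.28), listed genes outside the set of 7, lie between Ccl7 and Ccl8.

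Levels of different genes are compared here per kilobase of exon (log2 RPKM, over the union of a gene's annotated exons). In WT control the order from high to low was Ccl9 at 3.83, Ccl8 at 3.40, Ccl5 at 1.22, Ccl7 at 0.85 and Ccl2 at 0.43, with Ccl3 and Ccl4 under the floor. In KO control Ccl8 at 4.19 stood before Ccl9 at 3.54, and the order of Ccl5, Ccl7 and Ccl2 was kept. In WT colitis Ccl8 led at 7.34, ahead of Ccl9 at 5.06, Ccl2 at 4.39, Ccl7 at 4.32, Ccl5 at 4.20, Ccl4 at 2.42 and Ccl3 at 1.27. In KO colitis Ccl8 led at 7.11, followed by Ccl9 at 4.57, Ccl5 at 4.25, Ccl7 at 3.12, Ccl2 at 3.06, Ccl3 at 0.64 and Ccl4 at -0.07. Ccl5 stood below Ccl2 and Ccl7 in WT colitis and above both in KO colitis. With the longest transcript as the length, Ccl5 moved above Ccl2 and Ccl7 in WT colitis as well and above Ccl9 in KO colitis. None of these neighbours could be set against a spread between mice.

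Of the other CC chemokine genes, 7 of 10 were listed. Ccl12, a further monocyte chemoattractant and Ccr2 ligand, lies between Ccl7 and Ccl8. It had a KO control mean above that of WT, as Ccl8 did. Its means were -0.93 in WT control, 0.09 in KO control, 2.30 in WT colitis and 2.05 in KO colitis. The difference between colitis and control was 3.23 in WT and 1.95 in KO. The KO minus WT difference in control was 1.02 (counting SE 0.44), on 5.31 reads in the geometric mean WT library and 10.4 in KO. Ccl19, a Ccr7 ligand that guides lymphocytes and dendritic cells, differed by 2.52 in WT and, against the floor, by at least 2.66 in KO. Ccl22, a Ccr4 ligand, differed by 1.25 in WT and 1.78 in KO, and Ccl11, the eosinophil attractant eotaxin, by 0.84 and 1.05. Ccl21a, another Ccr7 ligand, differed by 0.61 and 0.71. Ccl25 and Ccl27a were lower in colitis, Ccl25 by 0.77 in WT and 0.60 in KO and Ccl27a by 0.69 and 0.83. Values of Ccl21a and Ccl27a are uncertain because near-identical gene copies can share their reads. KO change minus WT change was below 0 for 2 of these 7 genes, Ccl12 and Ccl27a, and its median was 0.14.

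Of the CC receptors and binding proteins, 7 of the 13 reported here were listed, and every one of the 7 had higher means in colitis than in control, as did 54.2% of listed genes in WT and 54.1% in KO. Ccr2, which marks inflammatory monocytes, was higher in colitis by 2.45 in WT and 2.56 in KO. Ccr4 was higher by 2.42 and 1.61, and Ccr3, found on eosinophils, by 2.28 and 2.04. Ccr1 was higher by 1.71 and 1.42 and the lymph node homing receptor Ccr7 by 1.46 and 2.05. Ccr6, the Ccl20 receptor, was higher by 0.84 and 1.12, and Ccrl2, an atypical receptor, by 0.80 and 0.54. The medians were 1.71 in WT and 1.61 in KO, and the difference of the changes ranged from -0.81 to 0.60 with a median of -0.23. The lowest value, of Ccr4, had a counting SE of 0.61, with 3.42 reads in the geometric mean WT control library. Ccr2 in colitis was thus not lower in KO (5.92) than in WT (5.67), while its ligand genes Ccl2 and Ccl7 were.

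**Figure D2:**
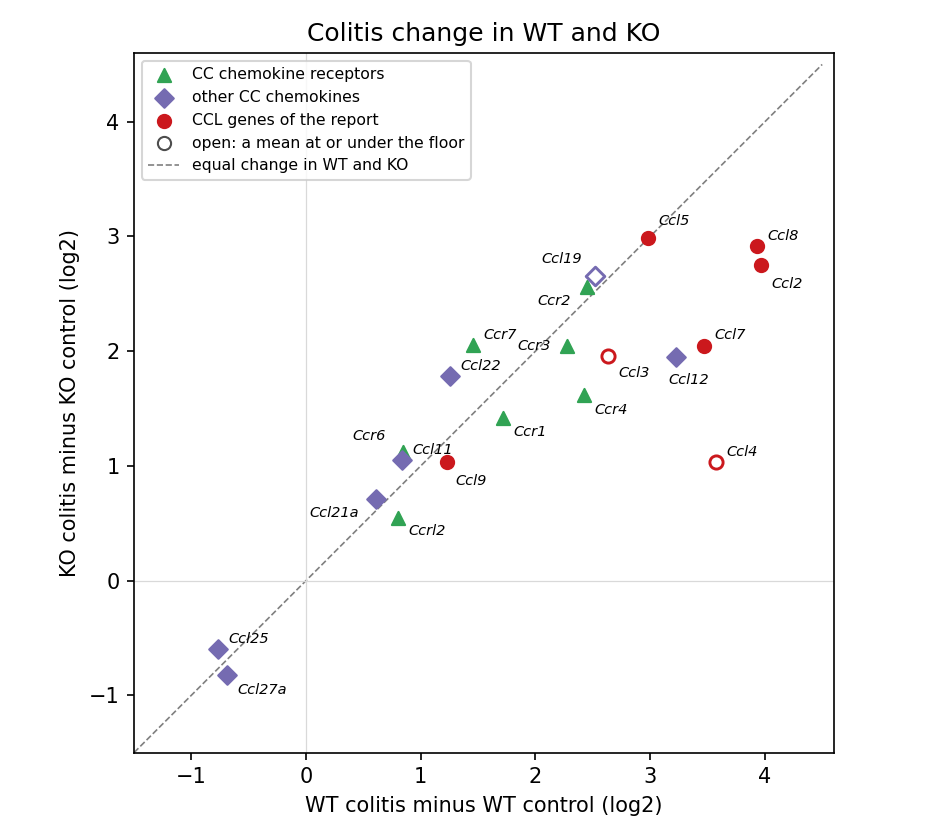
Colitis minus control difference in KO (y axis, log2) against that in WT (x axis, log2) for the 7 CCL genes (red circles), 7 other CC chemokine genes (purple diamonds) and 7 receptor genes (green triangles). Open symbols have a control mean at or under the floor, and the difference against that mean is a lower bound. For Ccl19 this holds for the KO difference only. The dashed line marks equal change. Ccl4, Ccl7, Ccl2 and Ccl8 lie below it by more than 1, as does Ccl12, and Ccl5 lies on it.

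Of 17 cytokines that induce CC chemokines and NF-kB feedback genes, 10 were listed. Tnf was higher in colitis by 3.86 in WT and 2.73 in KO, Il1b by 5.46 and 3.83, and Il1a by 3.69 and 2.11. Il6, at 0 reads in control, was higher by at least 4.32 and 2.15 on the log2 scale. Il1b did not pass the authors' threshold for colitis against control in WT, and Il6 and Il22 did not in KO. The feedback genes Nfkbie (0.95 and 0.96), Nfkbiz (1.20 and 0.93) and Bcl3 (0.67 and 0.53) differed less. The difference of the changes was below 0 in 9 of the 10 genes, with a median of -1.27. Il6, Il17a, Il22 and Ifng had both control means under the floor, and over the other 6 genes the median was -0.70, with 5 below 0.

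The difference of the changes varied between lists of leukocyte marker genes. Of the neutrophil markers 8 of 11 were listed, and the difference of their changes had a median of -1.60 (range -2.71 to 0.09) with 7 of 8 below 0. Their summed RPM was 102 in WT control, 109 in KO control, 418 in WT colitis and 297 in KO colitis. Ly6g, at 6.52 log2 RPM in WT control, carried most of the control sum. In colitis Ly6g had 207 RPM in WT and 236 in KO, so it carried most of the KO colitis sum as well. The other 7 listed markers were lower in KO colitis than in WT colitis. S100a8, Cxcr2 and Mmp8 were at or under the floor in both control groups and S100a9 in KO control. Over the other 4 genes, Ly6g (0.09) among them, the median difference of the changes was -0.82, with 3 below 0. Of the monocyte and macrophage markers 9 of 13 were listed, with a median of -0.07 (range -0.80 to 0.33) and summed RPM of 636, 670, 1573 and 1541 in the same order. Of the T and NK cell markers 11 of 11 were listed, with a median of 0.08 (range -1.39 to 0.94) and sums of 20.4, 20.1, 90.9 and 85.6. The 5 pan-leukocyte markers had a median of 0.14 (range 0.03 to 0.36) and the 4 listed of 6 dendritic cell markers one of 0.37. The 4 listed of 6 stroma markers had a median of -0.29, and of 6 B and plasma cell markers 0 were listed. The part of the cell makeup in the CCL differences was not tested.

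**Figure D3:**
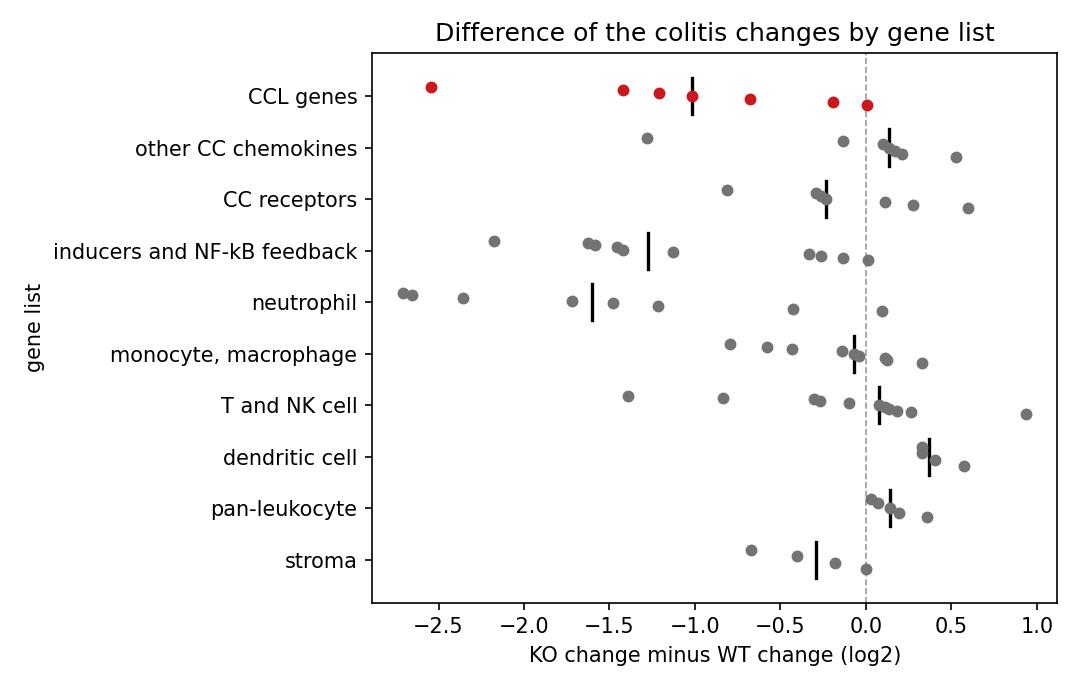
KO change minus WT change (x axis, log2) of each listed gene, by gene list (y axis), with black bars at the medians. Values left of the dashed line are genes with a smaller colitis minus control difference in KO. The CCL genes spread from -2.55 to 0.01, and the medians of the neutrophil list (-1.60) and of the inducers (-1.27), which include genes set to the floor in control, are on the same side.

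Likeness was measured as the Euclidean distance over 3 log2 differences of group means (WT change, KO change, and KO minus WT in control), among 5164 other listed genes. The nearest gene was Timp1 for Ccl2 (distance 0.14), Nlrp3 for Ccl3 (0.14), Tarm1 for Ccl4 (0.22), Gbp2 for Ccl5 (0.18), H19 for Ccl7 (0.20), Fam26f for Ccl8 (0.17) and Gm379 for Ccl9 (0.070). H19, Cemip and Mmp13 were nearest to the medians of the 7 genes. Ccl3, Ccl4, Tarm1 and H19 had both control means at or under the floor, and the members' median control difference is itself such a floored value. Distances that involve these values are therefore partly set by the floor, and the control differences of Ccl4 and Tarm1 are equal by construction. Timp1 encodes a metalloproteinase inhibitor, Gbp2 an interferon-induced GTPase and Nlrp3 an inflammasome sensor. When the control difference was left out, Tarm1 stayed nearest to Ccl4, every other gene of the 7 had a different nearest gene, and the 3 nearest to the medians were the same genes.

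Upstream sequence was at hand for 3 of the 7 genes, Ccl8, Ccl9 and Ccl3, as RefSeq windows of 250 bases before the start (GRCm38.p6). All windows at hand are shown. These 3 genes had unequal levels without DSS, Ccl8 and Ccl9 leading per kilobase and Ccl3 under the floor, and all were higher in colitis. A link between motifs and levels was not tested. Capitals mark the motif matches found on either strand.
Ccl8: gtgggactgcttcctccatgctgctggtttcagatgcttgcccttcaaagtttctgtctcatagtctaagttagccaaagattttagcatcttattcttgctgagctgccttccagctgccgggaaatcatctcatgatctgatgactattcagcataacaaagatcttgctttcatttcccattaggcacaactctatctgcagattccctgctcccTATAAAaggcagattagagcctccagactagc
Ccl9: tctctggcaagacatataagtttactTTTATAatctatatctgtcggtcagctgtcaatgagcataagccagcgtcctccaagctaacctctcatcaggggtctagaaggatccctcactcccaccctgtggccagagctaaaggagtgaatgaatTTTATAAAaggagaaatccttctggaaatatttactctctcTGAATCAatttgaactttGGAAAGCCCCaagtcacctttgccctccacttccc
Ccl3: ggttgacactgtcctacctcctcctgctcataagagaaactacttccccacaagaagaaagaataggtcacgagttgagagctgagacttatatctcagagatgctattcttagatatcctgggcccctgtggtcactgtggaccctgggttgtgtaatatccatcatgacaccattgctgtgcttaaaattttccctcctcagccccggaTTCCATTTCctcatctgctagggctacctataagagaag
The Ccl8 window (chr11:82114935-82115184, plus strand) held TATAAA 32 bases before the start. The Ccl9 window (chr11:83578637-83578886, minus strand) held an NF-kB consensus match on the opposite strand, GGAAAGCCCC, 35 bases before the start. It also held an AP-1 match, TGAATCA, 53 bases before the start, and 3 TATA matches, at 224, 94 and 92 bases. The TATA matches at 224 and 94 bases were on the opposite strand, and those at 94 and 92 overlap. The Ccl3 window (chr11:83649379-83649628, minus strand) held an IRF match on the opposite strand, TTCCATTTC, 39 bases before the start. The letters searched were the NF-kB consensus, AP-1 as TGANTCA, STAT as TTCNNNGAA, IRF as GAAANNGAA and TATA as TATAAA. Of 32851 windows of the same length, 7.25% held an NF-kB match, 6.75% AP-1, 7.02% STAT, 7.13% IRF and 12.4% TATA. A match describes the letters of the window and not a bound site.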

How the data were processed

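RNA-seq of whole colon was deposited as 4 tables of genes. Per the submitters' notes, the authors mapped reads to GRCm38 with HISAT2 2.1.0, counted uniquely mapped reads over exons of merged transcripts after removing rRNA reads, and tested the counts with DESeq2. Strand setting is not given in the sources used here, and read pairing differs between the labels and the methods. The deposited values are log2 RPM, not corrected for length, given by the authors as means of 4 groups (16 libraries). Each table holds genes under a false discovery rate of 0.05 in 1 comparison. That column of adjusted p-values was not used. With no single libraries, no test, SD or correlation was computed and no p-value is given.

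Groups came from the sample labels. Library size was recovered from low means, which fell on whole-read steps with a count of 0 entered as 0.9. The floor was 3 reads per library. A change of at least 1 on the log2 scale was counted in 5171 listed genes. Recovery of library size was checked on simulated data, and the arithmetic of the differences on a made-up example. Other steps were not checked in this way (python 3.11.15, pandas 2.3.3, numpy 2.4.6, biopython 1.88, matplotlib 3.10.9, GENCODE M21). The members, gene lists and comparisons were chosen with earlier results of these data known. Named genes are the members, the listed CC chemokines and receptors, the nearest gene to each member and the 3 nearest to their medians, and defining markers of the other lists. 1 gene of the receptor list is not reported here. Genes of the inducer list were named after their values were seen. Alternatives were no floor, a floor of 1 read, other thresholds, centring on the median gene, the mean over members, and genes above the floor. Medians of the inducer and neutrophil lists without genes at the floor were added after seeing the data.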

Additional observations from a re-analysis of the deposited data

How the results depend on the processing

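No paired analysis was possible because the values used here are group means, and for the same reason no replicate could be left out in turn. Of 99 alternative values of single genes, 88 stayed within the 95% counting interval of the value given, 11 moved and 0 reversed. For Ccl3 and Ccl4 that interval took the floor's 3 reads in control, and their KO minus WT differences in control, with both means under the floor, were left out. With no floor or a floor of 1 read, 4 values each moved, all of them colitis changes of Ccl3 and Ccl4. These settings cannot alter a difference between means above the floor, so such values among the 88 stayed by construction. With no floor, Ccl4 differed between colitis and control by 5.26 in WT and 2.67 in KO and Ccl3 by 3.94 and 3.65. Relative to the median listed gene, which shifted by 0.13 in WT and 0.19 in KO, 3 values moved, of Ccl8 in KO (2.73) and of Ccl9 in WT (1.10) and KO (0.85).

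Of 28 alternative medians and counts, 22 kept their value within the tolerance, which was 1.5 times for counts and, for medians, the median width of the 7 genes' counting intervals to 1 side. The KO minus WT values in colitis cannot change when the floor is left out, since all colitis means lay above it. Taking no floor gave 3.93 (WT) and 2.75 (KO) as the median change, and over the 5 genes above the floor it was also 2.75 in KO. The mean KO minus WT difference in colitis over the 7 genes was -0.90, against a median of -0.63. At a threshold of 2 on the log2 scale, 4 genes were higher in KO colitis than in KO control and 1 gene, Ccl4, was lower in KO colitis than in WT colitis. Depth limits Ccl3 and Ccl4 in control, where any level up to 3 reads per library could not be told from the floor.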
